A study of Mus musculus with 2 samples.

Results

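Small nuclear RNA (snRNA) genes were examined in 1 RNA-seq library from control testes and 1 library from Bcas2F/-;Vasa-Cre testes, both taken from mice at 9 days of age. The members were selected on their values: genes to which GENCODE M21 gives the biotype snRNA and whose mean RPKM over both libraries was at least 0.5. RPKM is the number of reads counted on a gene, scaled to the length of the gene and to the reads counted in the library. Of the 1384 snRNA genes among the 39695 entries of the series, 147 were members. Control males carried 1 floxed and 1 deleted Bcas2 allele and no Vasa-Cre, and the Bcas2F/-;Vasa-Cre males carried the same alleles together with the Cre transgene, driven by the promoter of the germ cell gene Vasa. The whole testis was used, so germ cells and somatic cells were read together. The labels give the strain as C57BL/6, the methods of the study describe a mixed 129 and C57BL/6 background, and the number of mice behind each library is not stated. The labels call the sample total RNA, whereas the study describes the isolated RNA as mRNA, and the step that selected it is not given in the sources used here.

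Small nuclear RNAs are the RNA core of the spliceosome. U1 pairs with the 5′ splice site of an intron, U2 with its branch point and U5 with the exon ends, while U6 enters paired with U4 and then forms part of the catalytic centre. U11, U12, U4atac and U6atac do the same for a rare class of introns, and U7 acts in the 3′ end formation of histone mRNA. BCAS2 is a protein of the PRP19 complex, which joins the spliceosome as its catalytic centre forms. RNA polymerase II makes most snRNAs and RNA polymerase III makes U6. None of them carries a poly(A) tail, and mammalian genomes hold many diverged copies of each, most of them not known to be active.

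The targeted gene was examined first. Bcas2 (ENSMUSG00000005687, chromosome 3, 103171655 to 103179166 on GRCm38) had RPKM values of 39.5 in the control library and 25.7 in the Bcas2F/-;Vasa-Cre library, a log2 ratio of RPKM + 1 of −0.60. In these whole testes both the fall of the gene within germ cells and a smaller share of germ cells would lower the value, and they cannot be told apart in bulk tissue. Of the 19 cell type markers examined, all 19 were above the minimum of 0.5, with 1 past 1.5-fold on the lower and 1 on the higher side. The 5 germ cell markers ran from −0.25 (Ddx4) to −0.61 (Stra8, required for entry into meiosis, 87.2 in control and 56.8 in Bcas2F/-;Vasa-Cre testes) on the log2 scale. The 3 Sertoli cell markers ran from 0.11 (Wt1) to 0.36 (Amh). Cyp17a1, a steroid-producing enzyme of Leydig cells, was the marker past 1.5-fold on the higher side, with 94.8 and 152.1. Over all 19 markers, 12 were below 0 and 7 above, with a median log2 ratio of −0.13, so markers of somatic cells did not all rise. The part of these differences in the snRNA values was not tested.

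The sequences of the genes show what the snRNA annotation holds, so a few are given here, as GENCODE M21 records the transcripts on GRCm38. Each gene was assigned to a class by its best match to the genes whose symbols name one. No symbol names U4, U4atac or U6atac, so no gene could be assigned to these classes. Rnu6 is the U6 reference, and in the 2 U6 copies that follow capitals mark every base that differs from it or is inserted. Gm25047 (plus strand, chrX:36363899-36364002) had the most reads of all members, and Gm24689 (plus strand, chr14:50918425-50918528) had the largest fall.
Gm25047: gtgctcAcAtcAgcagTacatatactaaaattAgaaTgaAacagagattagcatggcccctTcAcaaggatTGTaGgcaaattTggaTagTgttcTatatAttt
Gm24689: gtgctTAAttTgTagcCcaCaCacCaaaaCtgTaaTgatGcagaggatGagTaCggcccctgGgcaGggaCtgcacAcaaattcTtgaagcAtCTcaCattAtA

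Set against the 107 bases of Rnu6, Gm25047 carried 17 substitutions, 1 inserted and 4 missing bases, and Gm24689 carried 26 substitutions, 1 inserted and 4 missing bases. Both are diverged copies of U6.

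Members of the other classes that the results turn on were the U2 gene Gm23849 (plus strand, chr11:101627366-101627556), which rose most among members with at least 30 reads, the U1 gene Gm22513 (plus strand, chr12:54696782-54696945), which was closest of the U1 members to a named U1 gene, Rnu11 (minus strand, chr4:132270080-132270213), whose symbol names its class, and Gm26254 (minus strand, chr4:31998624-31998741) and Gm24407 (plus strand, chr5:115490254-115490394), which matched no named class. The capitals mark GTAGTA, the U2 letters that pair with the branch point; ACTTACCTG, the U1 letters that pair with the 5′ splice site; and TTTGCGCAG, near the 5′ end of U4. No letters were marked in Rnu11.
Gm23849: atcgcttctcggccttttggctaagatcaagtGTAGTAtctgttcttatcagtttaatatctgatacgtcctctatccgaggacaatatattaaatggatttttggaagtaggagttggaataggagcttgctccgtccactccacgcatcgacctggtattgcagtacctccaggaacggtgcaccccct
Gm22513: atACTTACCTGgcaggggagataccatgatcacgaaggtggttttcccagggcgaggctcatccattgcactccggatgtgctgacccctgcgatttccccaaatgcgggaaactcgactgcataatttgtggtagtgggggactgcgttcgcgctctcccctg
Rnu11: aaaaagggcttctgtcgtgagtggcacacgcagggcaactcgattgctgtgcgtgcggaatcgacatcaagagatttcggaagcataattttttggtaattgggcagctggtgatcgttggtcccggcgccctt
Gm26254: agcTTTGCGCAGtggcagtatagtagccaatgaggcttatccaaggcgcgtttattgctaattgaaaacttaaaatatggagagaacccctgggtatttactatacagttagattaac
Gm24407: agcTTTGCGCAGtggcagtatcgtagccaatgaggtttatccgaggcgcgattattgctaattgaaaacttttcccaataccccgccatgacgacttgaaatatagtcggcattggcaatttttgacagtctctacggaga

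These motifs, 1 of U6, and motifs of the Sm site, U6atac and U4atac were searched on the transcribed strand of the annotated genes. GTAGTA was in 8 of the 8 U2 members and in 32 of all 54 U2 genes (59.3%). ACAGAGA, the U6 letters that pair with the 5′ splice site, was in 52 of the 100 U6 members and in 575 of all 954 U6 genes (60.3%), so that the U6 members held it no more often than U6 genes at large. ACTTACCTG was in 7 of the 20 U1 members and 55 of 209 U1 genes (26.3%). TTTGCGCAG was in 3 members without a class, Gm22249, Gm24407 and Gm26254, and in 11 of the 82 genes without a class that have a sequence (13.4%). Of these 82, TCCTTTTCT of U4atac was in 1, the member Gm22710. AAGGAGAGA of U6atac was in 7 of the 82 and in 0 of the 14 members without a class. The counts of the Sm site motifs are not reported here. The 6-letter GTAGTA is short, and it also stood in 10 of the 209 U1 genes.

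Few reads stood behind these values. The deposited RPKM values, multiplied by gene length, were whole multiples of 1 read in every case: all 469 values above 0 of snRNA genes came out whole within 0.02 reads, with library sizes of 19918750 (control) and 19331687 (Bcas2F/-;Vasa-Cre) reads. Members were 56 to 191 bases long, with a median of 107. On a gene of 107 bases, 1 read was worth an RPKM of 0.469 in the control and 0.483 in the Bcas2F/-;Vasa-Cre library. A member had a median of 7 reads in both libraries together, with a quartile range of 4 to 10.5 and extremes of 2 and 345. Of the 147 members, 105 (71.4%) had under 10 reads in all and 5 had at least 30, and these 5 genes held 31.0% of the reads of all members. The other snRNA genes held still less: 1076 of the 1384 (77.7%) were at 0 in both libraries and 109 had exactly 1 read.

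The minimum mean RPKM of 0.5 was reached with as few as 2 reads in both libraries together, so a single read could decide membership. Just inside it was Gm24409, a U1 copy of 152 bases with 2 control reads and 1 Bcas2F/-;Vasa-Cre read (mean RPKM 0.5004), followed by 4 U6 copies of 103 bases, Gm23559, Gm25390, Gm25867 and Gm26446, each with 0 control reads and 2 Bcas2F/-;Vasa-Cre reads (mean 0.502). Just outside were Gm23428 and Gm23783, each of 102 bases with 1 read in each library (mean 0.4997), and then Gm22576, Gm23354 and Gm26441, each of 104 bases with 0 and 2 reads (mean 0.497). Because a read was worth 1.03 times as much in the smaller Bcas2F/-;Vasa-Cre library, the border did not treat the libraries alike. Of 18 snRNA genes with 0 control reads and 2 Bcas2F/-;Vasa-Cre reads, 4 were members, and of 12 with 2 and 0 reads, 0 were. These 12 were at least 106 bases long, too long to reach 0.5 with 2 reads from either library. In all, 101 members reached 0.5 in both libraries, 16 passed the minimum through the control alone and 30 through the Bcas2F/-;Vasa-Cre library alone. A member of either kind had to differ in RPKM, though Gm26359 did so with 1 read in each library (0.497 and 0.512). The counts of higher and lower members below carry that imbalance.

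The classes were very unequal. U6 gave 100 of the 147 members, U1 gave 20, U2 gave 8, U7 and U11 gave 2 each and U5 gave 1, while 14 matched no gene whose symbol names a class. U4, U4atac and U6atac had no reference to match, so these 14 can include copies of them. U12 had 6 genes in the files and no member. As a share of its own genes, U2 reached the minimum in 8 of 54 (14.8%), U6 in 100 of 954 (10.5%), U1 in 20 of 209 (9.57%) and U7 in 2 of 61 (3.28%). The U6 members matched a median of 79.4% of the Rnu6 bases, against 82.2% over all U6 genes. The U2 members matched a median of 98.7% of Rnu2-10, against 71.5% over all U2 genes. The exceptions were Gm23887, at 72.3%, and Gm25887, at 35.1%. These identities are given as a description.

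The genes named after the snRNAs were at or near 0. Rnu1a1, Rnu1b1, Rnu1b2, Rnu1b6, Rnu7 and Rnu6-ps2 had 0 reads in both libraries. A count of 0 allows up to 3 reads per library. Rnu6 had 0 control reads and 1 Bcas2F/-;Vasa-Cre read, Rnu12 had 2 and 0, and Rnu2-10 had 2 and 1, all under the minimum. Only 2 members carried such a symbol. Rnu5g, in an intron of Parp16, had 2 reads in each library (RPKM 0.866 and 0.892). Rnu11 had 1 and 3 reads (0.375 and 1.16). Neither difference was outside counting error.

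Several groups of identical genes also had few reads. Rnu6 shared its sequence with 42 other genes, and these 43 genes together had 4 control reads and 3 Bcas2F/-;Vasa-Cre reads. Rnu1a1 shared its sequence with 6 others, and the 7 had 1 and 0 reads. Not every such group was near 0: Gm22352 and its copy Gm24584 had 6 and 8 reads, and the group of Rnu2-10 had 14 and 36. Of all snRNA genes, 95 had an identical copy, and of the 147 members 5 did. How reads matching several places were counted is not given in the sources used here, and the values of genes with an identical copy are uncertain for that reason.

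The members with the most reads were led by a single gene. Gm25047 (ENSMUSG00000084616) had 182 reads in the control and 163 in the Bcas2F/-;Vasa-Cre library, RPKM values of 87.9 and 81.1, and held 20.7% of the reads of all members. It lies between genes, 1558 bases downstream of Lonrf3. Its log2 ratio of reads was −0.12, with a 95% Clopper-Pearson interval of −0.43 to 0.20, so a difference was not detectable at this depth. Intervals of this kind cover counting error only, since each genotype had 1 library and no difference here has a replicate check.

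Gm22392 (ENSMUSG00000094551), which overlaps an exon of Eny2, a gene of the transcription coactivator SAGA, had 24 and 33 reads (RPKM 11.3 and 16.0, log2 ratio of reads 0.50, interval −0.30 to 1.32). Gm22753, on the opposite strand in an intron of the deubiquitinase gene Usp34, had 19 and 17 reads. Gm24461, on the opposite strand in Nckap1, had 14 and 21. The intervals of Gm22392, Gm22753 and Gm24461 all included 0. Gm23264 in Ndufv2 had 15 and 14 reads, Gm22573 in Ssu72 had 13 and 16, and Gm23864 in Ddr1 had 9 and 18. Their surrounding genes were near level, Ndufv2 at 138.4 and 133.9 and Ddr1 at 90.6 and 104.6. Gm27343, a U7 copy of 63 bases in 6820408C15Rik, had 15 and 11 reads. Gm25596 in Rnf146 had 17 and 8 reads and Gm23205 in Rnf14 had 16 and 9. Of the 11 members with the most reads, 6 were higher in control, 5 were higher in Bcas2F/-;Vasa-Cre testes, and 1, the U2 gene Gm23849, had an interval that excluded 0.

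**Figure D1:**
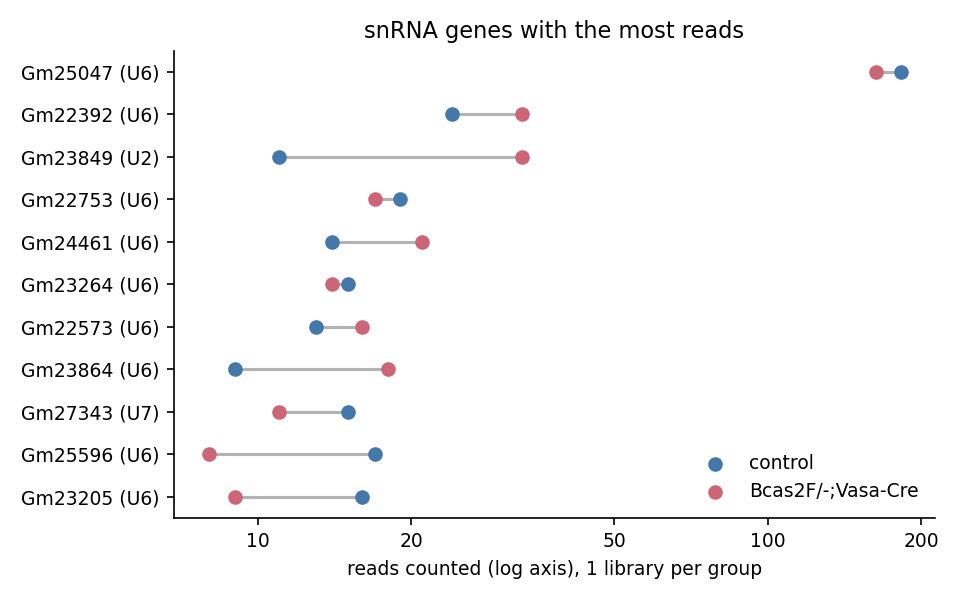
Reads counted on each of the 11 snRNA genes with the most reads (tied genes kept), on a log axis, in the control library (blue) and the Bcas2F/-;Vasa-Cre library (red). Gm25047 stands apart with 182 and 163 reads, and Gm23849 shows the widest ratio, 11 against 33 reads.

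Gm23849 (ENSMUSG00000065767) lies in an intron of Rdm1 on the strand of that gene and had 11 control and 33 Bcas2F/-;Vasa-Cre reads, RPKM values of 2.89 and 8.94. Its log2 ratio of reads was 1.63 (interval 0.61 to 2.76). Its 191 bases are identical to Rnu2-10, Gm23971 and Gm24950, and the 4 genes together had 14 and 36 reads, so nearly all reads of this U2 sequence were listed on 1 of its 4 copies. Rdm1 itself had RPKM values of 23.5 and 21.0. No rise was detectable in the other U2 members, whose reads were few. Gm24497, Gm23472 and Gm25939 in D230017M19Rik, which matched 98.4% to 99.5% of Rnu2-10, had 7 and 7, 4 and 4, and 8 and 2 reads. The intervals of Gm24497 (−1.70 to 1.78) and Gm23472 (−2.38 to 2.47) overlapped that of Gm23849. The interval of Gm25939 (−5.23 to 0.37) did not overlap that of Gm23849. The differences between these genes were not tested.

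Gm26254 (ENSMUSG00000084440), with the U4 letters and in an intron of the kinase gene Map3k7 on the opposite strand, had 3 and 13 reads, RPKM values of 1.28 and 5.70. Its log2 ratio of reads was 2.16 (0.30 to 4.61). Map3k7 had RPKM values of 47.3 and 49.3. Gm24407 and Gm22249, the other members with these letters, had 2 and 1 reads and 9 and 9 reads. The intervals of all 3 overlapped (−6.84 to 3.31 for Gm24407 and −1.46 to 1.55 for Gm22249), and the difference between these genes was not tested.

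On log2(RPKM + 1), the other largest rises were Gm25322 (0 and 4 reads, over an exon of 3830432H09Rik), Gm22500 (0 and 3 reads, in Igsf11) and Gm24536 (0 and 3 reads). Their intervals of the log2 ratio of reads all included 0, and no fold is given for them. The largest falls were Gm24689, opposite to Osgep, with 8 and 1 reads (RPKM 3.86 and 0.497, log2 ratio −1.70), and Gm22485, opposite to Ccdc66, also with 8 and 1 reads (3.68 and 0.475, −1.67). Both had an interval of −8.43 to −0.06. Gm22105 in Rev3l had 5 and 0 reads, and its interval included 0. Gm24776 had 8 and 2 reads, and Gm24892 had 3 and 0. These members were selected as the extremes of the set and their values are a description.

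Past 1.5-fold on log2(RPKM + 1), 17 of the 147 members (11.6%) were lower and 37 (25.2%) higher in Bcas2F/-;Vasa-Cre testes. Among all 16776 entries with the same minimum, 1.88% were lower and 2.03% higher. The members were selected on the same values, so their counts are a description. The spread was wider on both sides of 0: the SD of the log2 ratios was 0.68 in the members and 0.28 in all entries, at medians of 0.03 and 0.02. With members that had no read in one library set to the floor of 3 reads, or to no difference where both counts were at or under it, the median log2 ratio of reads was 0.04. Of the 37 higher members, 10 had 0 control reads and 13 had no more than 3 reads in either library. Of the 17 lower members, 2 had 0 Bcas2F/-;Vasa-Cre reads and 3 had no more than 3 reads in either library.

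Few of the members past 1.5-fold had many reads. Among the 105 members with under 10 reads, 12 (11.4%) were lower and 30 (28.6%) higher, and among the 42 with at least 10 reads, 5 (11.9%) were lower and 7 (16.7%) higher. The lower share was thus about level and the higher share was smaller, a difference that was not tested. Where RPKM had to reach 0.5 in each library, a condition chosen after seeing the data, 10 of 101 were lower and 18 higher. Of the 5 members with at least 30 reads, 0 were lower and 1, Gm23849, was higher. Levels in the libraries followed each other over the 147 members with a Pearson r of 0.70 and a Spearman rho of 0.52 on log2(RPKM + 1). Without Gm25047, r was 0.62. These are correlations across genes, which are not independent replicates.

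**Figure D2:**
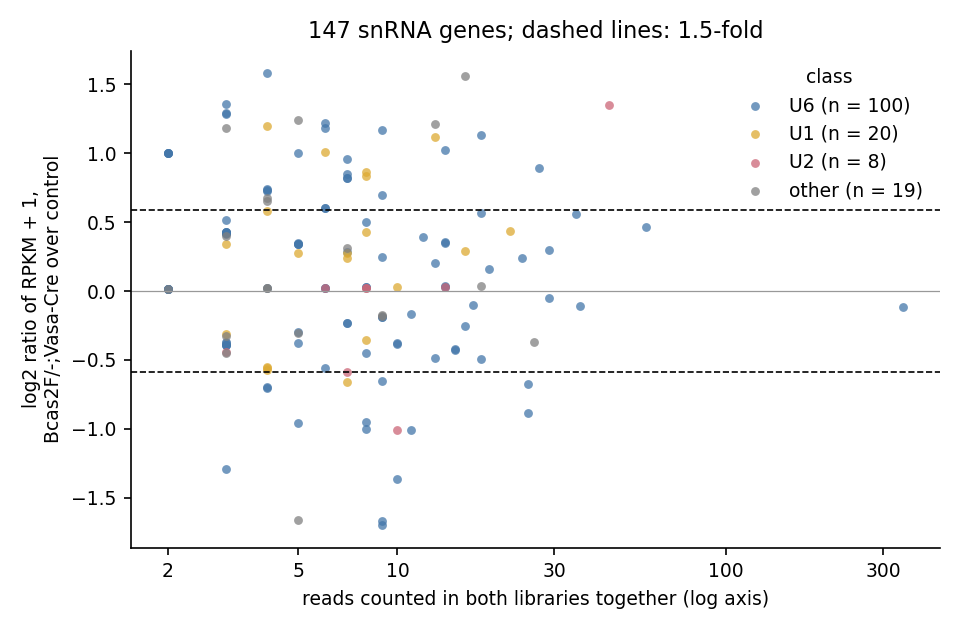
Log2 ratio of RPKM + 1 in Bcas2F/-;Vasa-Cre over control testes against the reads counted in both libraries together (log axis), for the 147 members coloured by class. The dashed lines mark 1.5-fold; the ratios spread from −1.70 to 1.58 among genes with few reads, and Gm25047, with 345 reads, lies at −0.11.

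Judged by counting error, 4 of the 147 members had an interval that excluded 0. At 95%, some of 147 intervals could exclude 0 by counting error alone. The 95% interval of the log2 ratio of reads lay below 0 for 2 members, Gm24689 and Gm22485, and above 0 for 2, Gm23849 and Gm26254. The shares were larger among the 997 single-exon genes with whole reads, of which 3.61% had an interval below 0 and 4.81% above 0. An interval could leave 0 only from 6 reads upwards, and 62 members had fewer. The members had a median of 7 reads and the single-exon genes, members included, a median of 11. For the other 143 members the interval included 0, and of the 54 members past 1.5-fold, 50 were among them.

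Summed over members, the reads were slightly more in Bcas2F/-;Vasa-Cre testes. The 147 members had 802 reads in the control and 868 in the Bcas2F/-;Vasa-Cre library, 40.3 and 44.9 per 1000000 counted reads, a log2 ratio of 0.16 (interval 0.02 to 0.30). Without Gm25047 the sums were 620 and 705 reads and the ratio was 0.23 (0.07 to 0.39). Without the 11 members that overlap an exon of another gene, the ratio was 0.11 and its interval, −0.04 to 0.25, included 0. Leaving out members in turn, a step added after seeing the data, brought the interval to 0 for Gm23849 alone (0.12, −0.02 to 0.26). Over all 1384 snRNA genes, for which no minimum was set, 909 and 980 reads gave 0.15 (0.02 to 0.28). The 220 snoRNA and scaRNA genes with the same minimum and whole reads, which guide the modification of other RNAs and have no poly(A) tail either, went from 2571 to 2762 reads, a ratio of 0.15 (0.07 to 0.22). The ratios of the snRNA and snoRNA sums were of one size, and the part of RNA selection in them was not tested.

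Among the classes, U6 had 631 and 645 reads (log2 ratio 0.07, interval −0.09 to 0.24), and a difference was not detectable. U1 had 63 and 88 reads (0.53, 0.04 to 1.02), and of its 20 members the one with the most reads was Gm23458 in Bcl7a, with 9 and 13. The U1 interval included 0 when any of 6 members was left out, among them Gm23458 (0.52, −0.01 to 1.05) and Gm25184 (0.42, −0.08 to 0.93), and when Gm25184 and Gm25949, the 2 U1 members over an exon, were left out (0.42, −0.10 to 0.94). U2 had 44 and 56 reads (0.39, −0.20 to 0.99), and without Gm23849 its ratio turned to −0.48 (−1.31 to 0.33). The members without a class had 43 and 57 reads (0.45, −0.15 to 1.06). U7 had 16 and 15, U11 had 3 and 5 and U5 had 2 and 2.

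**Figure D3:**
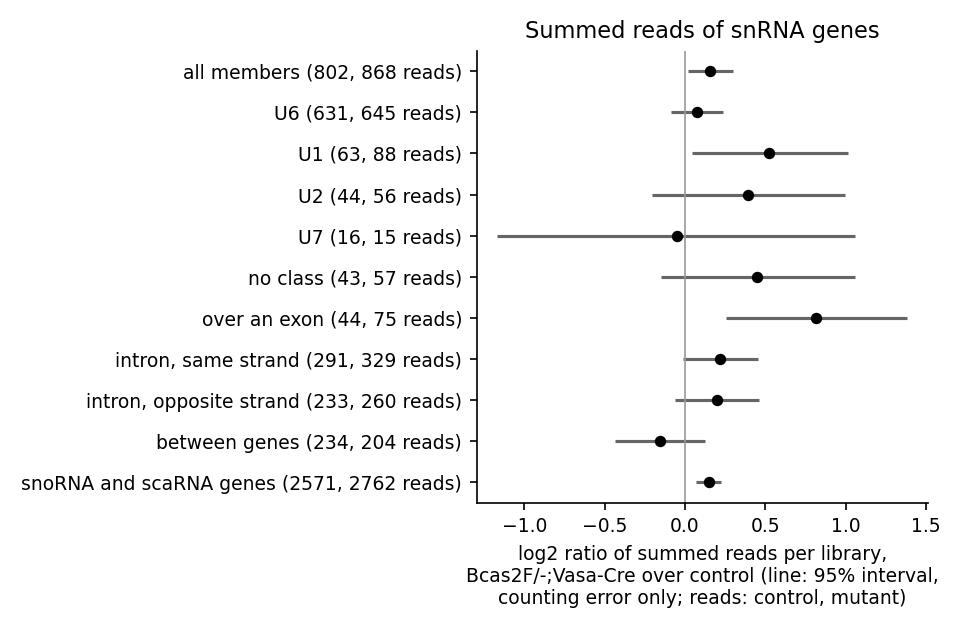
Log2 ratio of summed reads, scaled to the reads counted in each library, in Bcas2F/-;Vasa-Cre over control testes for all members, for the classes other than U5 and U11, which had under 10 reads each, for members by place, and for snoRNA and scaRNA genes. Points are the ratios and lines the 95% intervals from counting error only. Members over an exon lie at 0.81 and those between genes at −0.15. Several members over an exon passed the minimum through the Bcas2F/-;Vasa-Cre library alone, a selection that the interval does not cover.

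The members lay inside other genes far more often than the snRNA genes without reads. Of the 147 members, 70 (47.6%) were in an intron on the strand of the surrounding gene, 52 (35.4%) in an intron on the opposite strand, 11 (7.48%) over an exon and 14 (9.52%) between genes. Of the 1076 snRNA genes at 0 in both libraries, the shares were 15.9%, 16.7%, 2.70% and 64.7%. Place was not used to choose the members. The surrounding genes were also higher: their median of mean RPKM was 28.2 for members on the same strand and 40.2 for members on the opposite strand, against 1.98 and 2.14 around the genes at 0. The 14 members between genes lay a median of 4098 bases from the nearest gene, and the 696 genes at 0 between genes lay 15327 bases away.

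The share of intronic snRNA genes with at least 1 read followed the level of the surrounding gene. It was 11 of 135 (8.15%) where that gene had a mean RPKM under 1, 42 of 149 (28.2%) from 1 to 10, 108 of 170 (63.5%) from 10 to 50 and 49 of 67 (73.1%) from 50 upwards. On both strands the share was larger in each higher bin. It was 11.4%, 29.03%, 67.0% and 71.0% on the same strand and 4.62%, 27.6%, 59.5% and 75% on the opposite strand, and the difference between the strands was not tested. Where the surrounding gene was under 50, the same strand had more reads per snRNA gene. The values were 0.371 against 0.0615 under 1, 2.03 against 0.828 from 1 to 10 and 4.04 against 2.89 from 10 to 50. From 50 upwards the same strand had fewer, 4.39 against 6.92. Members on the same strand had a mean of 8.86 reads and those on the opposite strand 9.48. The library kit as named does not mark strand and the strand setting of the counting is not given in the sources used here, so reads from an snRNA gene and from an unspliced intron around it cannot be told apart on either strand. The level of a member followed that of its surrounding gene only loosely (Spearman rho 0.27 over 119 intronic members).

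**Figure D4:**
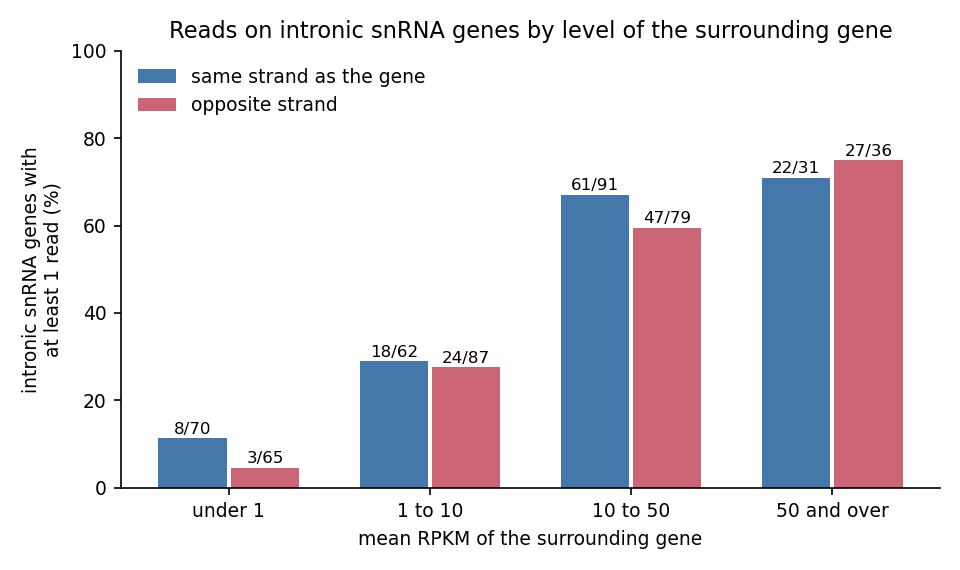
Share of intronic snRNA genes with at least 1 read in either library, by the mean RPKM of the surrounding gene, for snRNA genes on the same strand (blue) and the opposite strand (red); numbers over the bars are genes with a read out of all genes. The share rises from 8 of 70 and 3 of 65 where the surrounding gene is under 1 to 22 of 31 and 27 of 36 where it is 50 or more.

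By place, the members over an exon of another gene had 44 and 75 reads (log2 ratio 0.81, interval 0.26 to 1.38). Of these, Gm25322, Gm24536, Gm25600, Gm22710, Rnu11 and Gm25177 passed the minimum through the Bcas2F/-;Vasa-Cre library alone. The interval does not cover this selection, so the ratio of the members over an exon is a description. Among the members over an exon, Gm22392 in Eny2 and Gm25184 in Tpd52l2 (3 and 10 reads) had the largest differences in number of reads. Eny2 had RPKM values of 27.8 and 31.2 and Tpd52l2 80.7 and 81.0. Members in introns had 291 and 329 reads on the same strand (0.22, −0.01 to 0.45) and 233 and 260 on the opposite strand (0.20, −0.06 to 0.46). Those between genes had 234 and 204 (−0.15, −0.43 to 0.12), of which Gm25047 held most. For the 119 surrounding genes that reached the minimum, the log2 ratios had a median of 0.03 and ran from −0.54 to 0.49, so 0 of them passed 1.5-fold on either side.

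The genes for proteins that make and assemble snRNAs stayed within 1.5-fold, with more of them below 0 than above. Of 49 genes for snRNA transcription, 3′ end formation, export and assembly into particles, 48 passed the minimum of 0.5, with 0 past 1.5-fold on either side. Of the 48, 33 were below 0 and 15 above. Their median log2 ratio was −0.07, against 0.02 over all entries with the same minimum. The extremes were Ints11, the nuclease of the Integrator complex that cuts the 3′ end of snRNAs (28.2 in control and 19.7 in Bcas2F/-;Vasa-Cre testes, −0.49), and Bdp1, an initiation factor of RNA polymerase III (17.6 and 21.2, 0.26). The highest of the list were Ssb, which binds the 3′ end of new polymerase III transcripts (235.5 and 250.8), and Strap (174.4 and 174.5), a partner of the SMN complex that loads Sm proteins onto snRNAs. Ncbp2 (136.7 and 144.6) and Ncbp1 (88.8 and 80.9), which together bind the RNA cap, and Clns1a (85.5 and 89.0) and Prmt5 (75.1 and 67.7), which prepare the Sm proteins, were the others among the 6 highest. The list does not test activity of these proteins, only the levels of their RNA.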

How the data were processed

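Whole testes of mice at 9 days of age gave 1 library per genotype. Per the submitters' notes and the methods, paired-end reads were aligned by the authors to mm10 with TopHat2 2.0.9 and counted with HTSeq, and the authors deposited RPKM values, zeros included. Reads were recovered from RPKM and GENCODE M21 lengths, to which 37692 of 39695 identifiers matched. Log2 ratios used a pseudocount of 1, which understates changes of low genes, and a threshold of 1.5-fold. Intervals are 95% Clopper-Pearson. Classes were assigned with BLAST 2.17.0 (word size 7, E-value 0.001) and identities by global alignment in Biopython 1.88; scipy 1.17.1 was used. Scripts were tested on simulated data. Members and lists were chosen with earlier results of these data known. Genes named were Bcas2, members named for a class, the 10 with most reads, the 5 largest falls and rises, the 3 on either side of the minimum (ties kept) and the leading genes of the lists. U1, U2 and U4-like members, members over exons and Gm23458 were named after their values were seen. Sequences of some genes named in the text are not reported here.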

Additional observations from a re-analysis of the deposited data

How the results depend on the processing

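No paired analysis was possible because each genotype had 1 library. With a pseudocount of 0.1, 34 members were lower instead of 17, and the higher count, 52, stayed within 1.5 times of 37. Without a minimum, 37 of 308 snRNA genes were lower and 64 higher. With a minimum mean RPKM of 1, 21 of 94 were higher, and with at least 10 reads 5 of 42 were lower and 7 higher. With RPKM of at least 0.5 in each library, added after seeing the data, 10 of 101 were lower and 18 higher. These sets hold fewer or more genes, and the higher share also differed, at 25.2% of the 147 members, 16.7% with at least 10 reads and 17.8% with 0.5 in each library. Centring on the median of all entries (0.02) and rescaling RPKM to a sum of 1000000 gave 18 and 21 lower and 37 and 42 higher. The median log2 ratio ran from 0.02 to 0.06 over the alternatives, less than the half-width of the interval of the summed reads (0.14). Without the member with the most reads, U2 turned to −0.48 and U7 to 2.04, the latter on 1 gene with 1 and 4 reads. Of the 27 named members, 0 of those past 1.5-fold changed sign under the 3 alternatives run for them, which is no check. A change of pseudocount cannot turn a sign. Centring and rescaling moved the libraries against each other too little to turn a ratio past 1.5-fold. A pseudocount of 0.1 moved members with no read in one library far, Gm25322 from 1.58 to 4.39 and Gm22105 from −1.66 to −4.50. Depth limits each result: a member had a median of 7 reads, and the absence of replicates leaves the spread between animals unmeasured.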

Other observations

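A list of 11 other named RNAs, chosen as RNAs without a poly(A) tail, was also examined. Whether each of them, Malat1 and Neat1 included, lacks such a tail in these testes was not examined. Among those on the list, 7SK differed most. Rn7sk, the RNA polymerase III transcript that holds the elongation factor P-TEFb inactive, had 132 control and 51 Bcas2F/-;Vasa-Cre reads, RPKM values of 20.02 and 7.97. The log2 ratio of reads was −1.33, with an interval of −1.82 to −0.85. Of the 11 RNAs on the list, 5 passed the minimum of 0.5, 1 was more than 1.5-fold lower and 0 were higher. Malat1 had 798.1 and 907.0 and Neat1 14.2 and 17.2. Terc, the RNA of telomerase, had 2.14 and 1.83, and Rpph1, the RNA of RNase P, had 1.26 and 2.11. The genes for proteins that bind 7SK were near level, with Larp7 at 53.2 and 48.6, Mepce at 58.0 and 54.4 and Hexim1 at 32.7 and 32.1.

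Of the 221 snoRNA and scaRNA genes that reached the minimum, 27 (12.2%) were more than 1.5-fold lower and 47 (21.3%) higher, shares near those of the snRNA members. Snord104 had 90 and 138 reads (log2 ratio 0.66, interval 0.27 to 1.06) and Snord49a had 30 and 14 (−1.06, −2.09 to −0.10). Of 27 replication-dependent histone genes with that minimum, 2 were lower and 5 higher, where 1.88% of all entries were lower and 2.03% higher, at a median log2 ratio of 0.25, and Hist1h2ap had 91.4 and 56.5. No explanation of these values was tested.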
